A study of Mus musculus with 12 samples.

Results

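The genes described here encode the proteins of the mitochondrial ribosome. They were taken by name, as every gene row of the deposited count table whose symbol starts with Mrpl or Mrps followed by a digit, leaving out pseudogene names and rows for additional loci. This gave 76 of 23965 gene rows, of which 47 carry Mrpl names and 29 Mrps names. All 76 had counts in each of the 12 libraries and all 76 were among the 15608 genes tested.

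The samples were neurospheres grown from ventral midbrain of mouse embryos (strain CD-1, embryonic stage E11.5), with no genetic modification named in the labels. Spheres had been expanded for 3 days and were then kept for 5 h in N2 medium with 1 of 4 additions. Control cultures received the solvent DMSO, and the others received GW3965 (an agonist of the liver X receptors, which are sterol-sensing nuclear receptors), CT99021 (an inhibitor of glycogen synthase kinase 3 beta) or both, GW3965+CT99021. Each group had 3 libraries, numbered 1 to 3 in the labels. What a number stands for is not given there. Since the labels do not say either that replicates are separate cultures, the spread behind each p-value is that among libraries and could be technical.

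The mitochondrial ribosome translates the few proteins that are encoded by mitochondrial DNA, all of them subunits of the respiratory chain and the ATP synthase. Its RNAs come from the mitochondrial genome, whereas its proteins are encoded in the nucleus, made in the cytosol and imported. Some of these proteins have a counterpart in the bacterial ribosome and others are found only in mitochondria. Loss of single members is known to impair respiration.

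The libraries held 9646424 to 21314093 counts over gene rows, and the 76 genes together took 0.161% to 0.229% of them. The lowest count of any member in any library was 42. Libraries with the same number resembled each other across groups: all 18 such pairs had deviations from the group means that correlated, at r = 0.496 to 0.828 across genes. Across the 76 members alone r was 0.177 to 0.791, with a median of 0.470 against 0.752 across all genes tested. Results are therefore given from a fit in which the replicate number is a block, and "rose" and "fell" refer to that fit (edgeR's quasi-likelihood test, Benjamini-Hochberg adjusted p under 0.05 over all genes tested). The edgeR fit without the block called no member in any comparison, where it called 0.0577% of all genes for CT99021 against control, 0.115% for the combination against control, 0.0769% for the combination against GW3965 and 0.0% in the others. In that fit unadjusted p was under 0.05 for 3 members in CT99021 against control, for 6 in the combination against control, for 6 in the combination against GW3965, for 1 in the interaction and for 0 in the others. Of all 15608 genes, it was under 0.05 for 1514, 1867, 1771 and 74, in the same order. The share of members was lower than that of all genes in the first 3 of these. DESeq2 without the block called 1 member, in the combination against control, where it called 533 of 15608 genes. Limma-voom called 0 members in each comparison. Markers of midbrain neural progenitors summed to 1100 to 2880 CPM (counts scaled to a common library size) and markers of neurons to 1320 to 2400 CPM. Mesenchyme and pericyte markers reached 290 to 3970 CPM and erythroid markers 2220 to 12600 CPM, so these cultures also held RNA of other cells. The count table had rows for 9 of 10 listed neuron markers and 7 of 8 listed erythroid markers. No listed marker with a row was at 0 in every library. In such bulk samples, fewer cells of a type and less RNA per cell cannot be told apart.

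The 76 genes were expressed at moderate levels. Their mean level over the 12 libraries ran from 6.19 CPM for Mrpl23 to 87.4 CPM for Mrps25, with a median of 24.6 CPM against 25.3 CPM over all genes tested. Their transcripts are short (median 1153 bases against 2963 over all genes tested), and per kilobase of transcript their median level was 19.2 CPM against 8.60 CPM over all genes. Mrps25, a small subunit protein found only in mitochondria, was followed in CPM by Mrpl50 at 56.7, Mrps6 at 55.5, Mrpl9 at 54.8 and Mrpl3 at 54.6. Per kilobase the order changed, and Mrps6, the counterpart of a bacterial small subunit protein, led at 63.1 CPM per kb, followed by Mrpl12 at 46.7 and Mrpl20 at 41.9. Mrps25 overlaps the protein-coding gene Nr2c2 (mean of 141.5 CPM in control) and Mrps6 overlaps Slc5a3 (191.0 CPM in control). The part of reads from Nr2c2 and Slc5a3 in the levels of Mrps25 and Mrps6 was not tested. At the low end in CPM were Mrps10, Mrps28, Mrpl22, Mrpl55 and Mrpl23. Mrps25 lay above Mrpl50 in all 12 libraries. Mrpl50, Mrps6, Mrpl9 and Mrpl3 had ranges over the libraries that overlapped, as did the lowest 5 from neighbour to neighbour, and no test of these orders was made.

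Variation between libraries was smaller than for most genes. The SD of log2 CPM over the 12 libraries had a median of 0.23 among the 76 genes and 0.32 over all genes tested. Mrpl27 was the steadiest, with an SD of 0.08, and its level ran from 20.9 to 26.4 CPM. Mrpl12, the stalk protein that docks translation factors onto the large subunit, varied most, with an SD of 0.44, followed by Mrpl3 at 0.41, Mrpl28 at 0.40, Mrpl18 at 0.39 and Mrps18b at 0.35. Much of this variation followed the replicate number. In the libraries numbered 3 the level of the 76 genes was lower than in the others of the same group, with a median log2 difference of -0.31 and a negative value for 71 of 76 genes, against a median of 0.00 over all genes tested. The libraries numbered 3 also had the highest erythroid and the highest mesenchyme and pericyte marker sums in their group, and the lowest neural progenitor sum. Single progenitor markers did not all go this way: Foxa2, a floor plate factor, had 33.5 CPM in control replicate 3 against 7.04 and 7.96 CPM in replicates 1 and 2, and Lmx1a 42.0 CPM against 16.6 CPM in replicate 2 and less in replicate 1. The part of these markers in the lower levels was not tested.

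Summed over the 76 genes, the control libraries numbered 1, 2 and 3 gave 2067, 2084 and 1680 CPM, a mean of 1944 ± 228.9 CPM (SD, n = 3). GW3965 gave 2005, 2021 and 1559 CPM (1862 ± 262.1). CT99021 gave 2183, 2296 and 1824 CPM (2101 ± 246.4). GW3965+CT99021 gave 2337, 2246 and 1798 CPM (2127 ± 288.4). The groups overlapped, because each library numbered 3 lay below all others of any group. Within each number, however, the order was the same: both CT99021-containing libraries were highest, control was next and GW3965 was lowest.

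**Figure D1:**
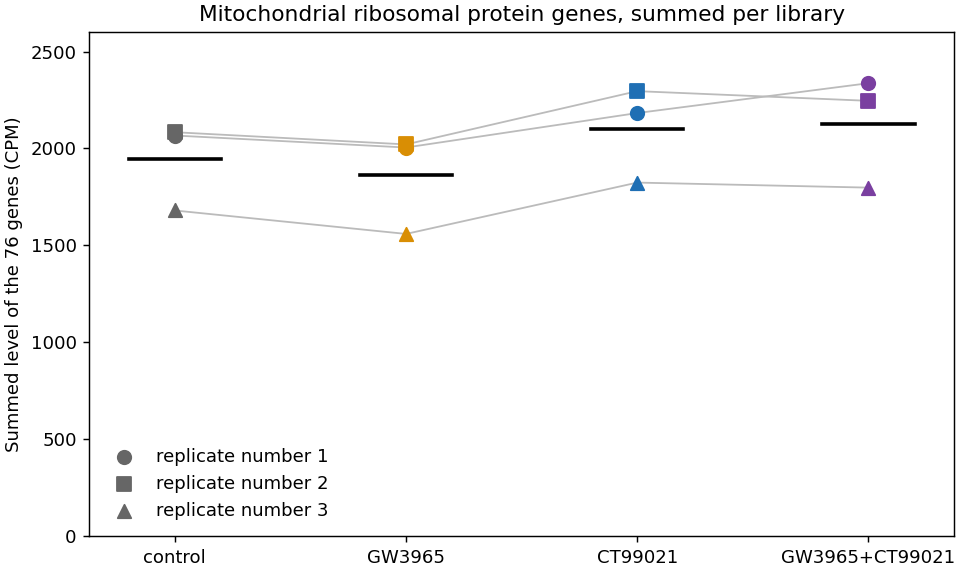
Summed level of the 76 mitochondrial ribosomal protein genes in CPM (vertical axis) by group (horizontal axis). Points are libraries, with the marker shape giving the replicate number, grey lines join libraries of the same number and black bars are group means. Libraries numbered 3 lie lowest in each group, from 1559 to 1824 CPM, and along every line the 2 groups with CT99021 lie above control.

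**Figure D2:**
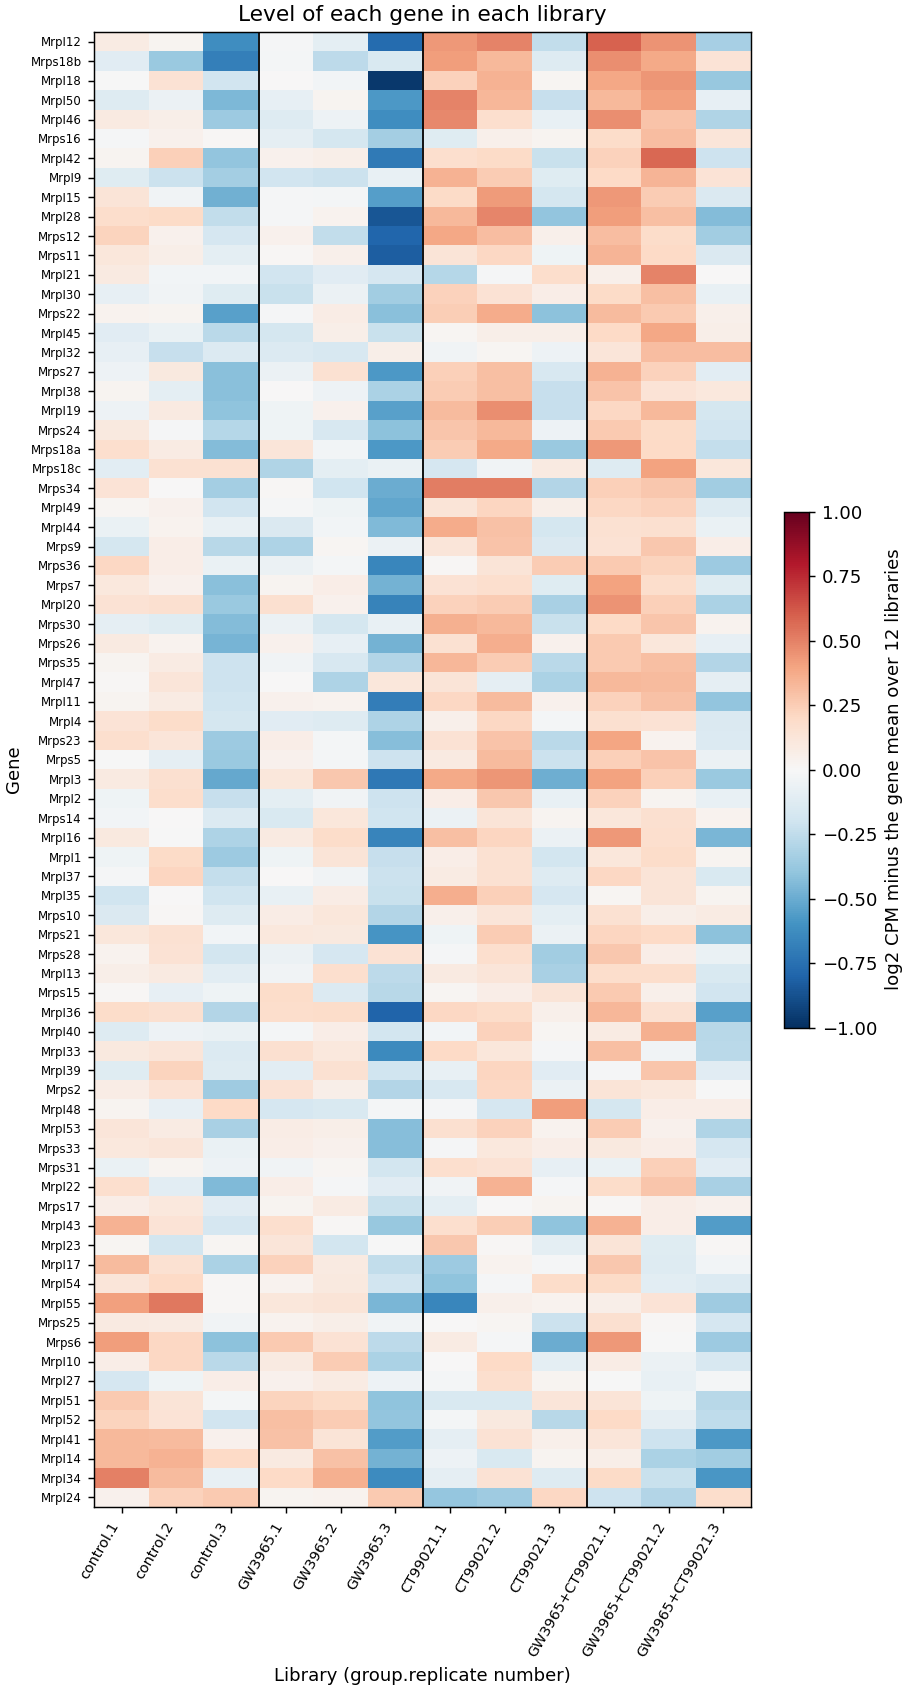
Level of each of the 76 genes (rows) in each of the 12 libraries (columns) as log2 CPM minus the mean of that gene, with red above and blue below the mean and the colour scale ending at 1 either way. Rows are ordered by the fitted change of GW3965+CT99021 against GW3965. Libraries numbered 3 are mostly blue (71 of 76 genes lower than in the other libraries of their groups), and the CT99021 libraries numbered 1 and 2 are red in the upper rows.

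The first comparison asked what inhibition of the kinase alone did. With CT99021, 5 of the 76 genes rose against control: Mrps18b, Mrpl12, Mrpl50, Mrpl9 and Mrpl19, with log2 fold changes of 0.31 to 0.59. Mrpl24, the counterpart of a bacterial protein that starts assembly of the large subunit, fell. Over all 15608 genes, 8.23% rose and 7.59% fell in this comparison, so 5 members higher of 76 (6.58%) is near the background and 1 lower (1.32%) is below it. The remaining 70 genes did not pass the test. Of all 76, 56 had a log2 fold change above 0, with a median of 0.11 against 0.02 over all genes. CT99021 exceeded control in all 3 same-numbered pairs for 36 members, where 28.5% of all genes did so, and was below it in all 3 for 7, where 25.6% did so. Mesenchyme and pericyte marker sums were also higher with CT99021 in each number, at 1710, 399 and 3970 CPM against 1550, 290 and 2990 CPM, and 1 of 10 such markers rose and none fell. Neural progenitor sums were lower in each number, at 1570, 2240 and 1270 CPM against 2110, 2820 and 1550 CPM, and 3 of 12 such markers fell and none rose. The part of either in the result was not tested.

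Mrps18b is 1 of 3 mitochondrial relatives of a single bacterial small subunit protein. Its level was 22.7, 18.9 and 15.3 CPM in the control libraries numbered 1, 2 and 3 and 32.8, 30.6 and 22.4 CPM with CT99021. The groups overlapped only through CT99021 replicate 3, which lay just under control replicate 1, and each CT99021 library exceeded the control of its number. The log2 fold change was 0.59 ± 0.11 (standard error, adjusted p = 0.00796). The other relatives did not pass the test: Mrps18a, whose protein sits in the large subunit despite its name, had a log2 fold change of 0.16 ± 0.09 and Mrps18c one of -0.10 ± 0.12. Leaving out control replicate 2 took the adjusted p of Mrps18b to 0.0509.

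Mrpl12 had 49.7, 48.0 and 30.5 CPM in control and 63.4, 66.3 and 39.5 CPM with CT99021. The groups overlapped because both libraries numbered 3 were low, and each pair differed in the same direction. Its log2 fold change was 0.40 ± 0.07 (adjusted p = 0.00656), and it passed under all 17 alternatives with the block in this comparison and in both others in which it rose. The proteins it works beside showed smaller values that did not pass. Mrpl10, which anchors the stalk, had a log2 fold change of 0.04 ± 0.09 and Mrpl11, at the stalk base, one of 0.22 ± 0.12.

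Mrpl50, found only in mitochondria, had 50.6, 53.1 and 40.5 CPM in control and 78.2, 69.7 and 47.2 CPM with CT99021. Only CT99021 replicate 3 reached into the range of the controls, and the log2 fold change was 0.42 ± 0.08 (adjusted p = 0.0103). Without control replicate 1 the adjusted p was 0.0702 and without control replicate 2 it was 0.0635. Mrpl9, the counterpart of a bacterial large subunit protein, had 49.6, 46.6 and 42.8 CPM in control and 68.7, 64.7 and 49.8 CPM with CT99021. Here every CT99021 library lay above every control, if barely for replicate 3, which 7 members did in this direction and 7.22% of all genes. The log2 fold change of Mrpl9 was 0.39 ± 0.11 (adjusted p = 0.0327). Removing control replicate 1, 2 or 3 or CT99021 replicate 1 or 2 ended this call, with adjusted p of 0.0854 to 0.14.

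Mrpl19, whose bacterial counterpart lies where the subunits meet, had 41.9, 46.4 and 32.9 CPM in control and 54.3, 59.9 and 37.1 CPM with CT99021, with overlap through the libraries numbered 3. Its log2 fold change was 0.31 ± 0.07 (adjusted p = 0.0169). Removing replicate 1 or 2 of either group ended this call, with adjusted p of 0.0666 to 0.101. Its locus overlaps Gcfc2. Mrpl24 went the other way, from 27.1, 30.8 and 31.6 CPM in control to 20.1, 20.6 and 30.3 CPM with CT99021. CT99021 replicate 3 lay within the controls and the other 2 below them. The log2 fold change was -0.36 ± 0.11 (adjusted p = 0.0495), which passed in 5 of 17 alternatives. Removing replicate 1 or 2 of either group, or a single library of the groups with GW3965, ended this call, with adjusted p of 0.0504 to 0.242. With the combination Mrpl24 had 22.8, 21.4 and 29.6 CPM, which did not pass against control or GW3965. The overlapping gene Rrnad1 had a log2 fold change of -0.01 ± 0.12.

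**Figure D3:**
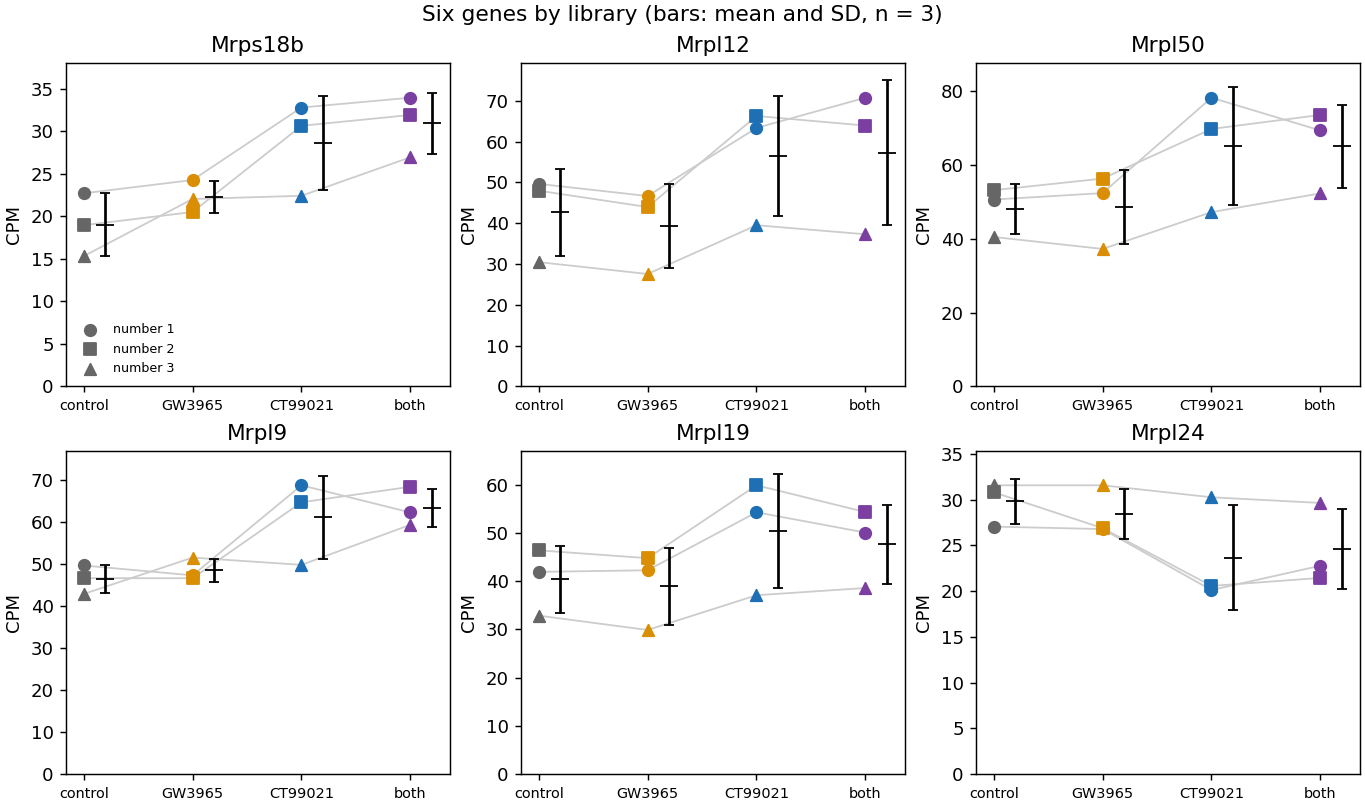
Level in CPM (vertical axis, from 0) of 6 genes by group (horizontal axis, "both" is GW3965+CT99021), with 1 point per library, the marker shape giving the replicate number and grey lines joining equal numbers. Black marks are the mean and SD of 3 libraries. Mrps18b, Mrpl12, Mrpl50, Mrpl9 and Mrpl19 are higher with CT99021 than in control along each line, and Mrpl24 is lower in the libraries numbered 1 and 2 (20.1 and 20.6 CPM against 27.1 and 30.8 CPM).

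The number of members called depended on single libraries. Of the 6 called with CT99021, 2 were left without control replicate 1, 1 without control replicate 2 and 3 without CT99021 replicate 2, and 12 were called without CT99021 replicate 3. Leaving out all 4 libraries numbered 3 gave 13, of which 10 were higher and 3 lower. Of the 12 without CT99021 replicate 3, 9 were higher and 3 lower. Genes called either way were 747 of 15841, 652 of 15846 and 1114 of 15853 without control replicate 1, control replicate 2 and CT99021 replicate 2. They were 2827 of 15754 without CT99021 replicate 3 and 3869 of 15496 without the libraries numbered 3. CT99021 replicate 1 stood apart in another respect: Lars2 took 7.95% of its counts against 0.0336% to 0.142% elsewhere, and mitochondrial ribosomal RNA reached 9745 CPM against 414 to 3038 CPM elsewhere. Without CT99021 replicate 1, 4 members and 1075 of 15836 genes were called.

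The promoters of 4 genes that rose with CT99021 and of Mrpl24 are shown because they let members that rose be set beside the one that fell. Mrpl19, which also rose, is not shown. Each sequence covers the 250 bases before the transcription start of the RefSeq table (build GRCm38.p6), on the coding strand. Capitals mark matches, on either strand, to GCGCANGCG (the motif of NRF1, a factor known for driving nuclear genes of mitochondria), to CCGGAAG (the core motif of ETS factors such as Gabpa) or to GGGCGG (the GC box of Sp factors).
Mrps18b promoter (chr17:35916441-35916690, minus strand): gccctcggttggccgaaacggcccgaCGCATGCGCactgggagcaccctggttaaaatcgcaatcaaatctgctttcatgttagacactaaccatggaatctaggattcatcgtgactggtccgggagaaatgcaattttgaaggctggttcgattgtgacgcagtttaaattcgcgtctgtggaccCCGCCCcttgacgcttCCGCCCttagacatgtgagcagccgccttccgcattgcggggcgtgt
Mrpl12 promoter (chr11:120484387-120484636, plus strand): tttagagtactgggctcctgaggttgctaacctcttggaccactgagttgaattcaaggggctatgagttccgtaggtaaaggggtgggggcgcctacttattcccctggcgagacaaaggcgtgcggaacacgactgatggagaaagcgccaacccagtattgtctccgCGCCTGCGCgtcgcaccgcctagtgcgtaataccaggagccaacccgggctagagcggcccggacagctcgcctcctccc
Mrpl50 promoter (chr4:49521084-49521333, minus strand): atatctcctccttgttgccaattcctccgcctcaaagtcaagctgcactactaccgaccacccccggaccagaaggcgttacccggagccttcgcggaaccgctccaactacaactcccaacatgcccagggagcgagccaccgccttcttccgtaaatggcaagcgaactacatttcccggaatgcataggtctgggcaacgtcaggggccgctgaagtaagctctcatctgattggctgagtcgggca
Mrpl9 promoter (chr3:94443086-94443335, plus strand): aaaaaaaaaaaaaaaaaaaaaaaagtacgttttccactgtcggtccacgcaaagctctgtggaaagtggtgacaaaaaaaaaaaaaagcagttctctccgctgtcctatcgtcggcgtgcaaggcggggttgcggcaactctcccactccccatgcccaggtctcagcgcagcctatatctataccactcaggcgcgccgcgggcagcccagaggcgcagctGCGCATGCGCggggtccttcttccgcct
Mrpl24 promoter (chr3:87919294-87919543, plus strand): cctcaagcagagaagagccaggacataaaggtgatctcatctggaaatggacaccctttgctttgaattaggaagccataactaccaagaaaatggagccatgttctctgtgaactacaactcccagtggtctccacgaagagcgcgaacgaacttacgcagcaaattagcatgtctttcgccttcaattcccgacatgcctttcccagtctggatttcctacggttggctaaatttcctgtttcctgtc
Mrps18b held 1 NRF1 match and 2 GC boxes in this stretch, Mrpl12 held 1 NRF1 match and Mrpl9 held a match on both strands at a single palindromic site. Mrpl50 and Mrpl24 held none of the 3 motifs. The RefSeq table had a promoter for 67 of the 76 genes, and in windows that also include the 50 bases after the start, 22.4% of these held the NRF1 motif, 35.8% the ETS motif and 49.3% the GC box. Over all 27025 genes of the table the shares were 7.03%, 9.93% and 38.2%. Among the 21 members with a promoter that rose in at least 1 comparison, they were 28.6%, 28.6% and 52.4%. The YY1 motif AAGATGG was held by 19.4% of the members and 7.28% of all genes, and the E-box CACGTG, bound by Myc, by 7.46% and 8.09%. The motif CTTTGAT of Tcf/Lef factors, which act in the pathway that the kinase restrains, was in 0 of 67 member promoters and in 4.29% of all, and TATAAA was in 7.46% and 15.7%. A match of letters shows neither binding nor use.

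The second comparison set the combination against the solvent. With GW3965+CT99021, 12 of the 76 genes rose (15.8%) and none fell, where 11.3% of all genes rose and 8.95% fell. The median log2 fold change was 0.12 against 0.01 over all genes. The libraries of control served in both comparisons, so the values are given side by side and not as a repeat. Mrps18b had 33.9, 31.9 and 26.9 CPM with the combination, all above the highest control, and a log2 fold change of 0.71 ± 0.11 (adjusted p = 0.00282) beside 0.59 with CT99021 alone. Mrpl9 had 62.2, 68.4 and 59.3 CPM, also above every control, and a log2 fold change of 0.45 ± 0.11 beside 0.39. Mrpl50 had 0.43 ± 0.08 beside 0.42, Mrpl12 had 0.41 ± 0.07 beside 0.40, and Mrpl19 had 0.24 ± 0.07 beside 0.31. Mrps18b, Mrpl12 and Mrpl50 passed under all 17 alternatives with the block and Mrpl19 under 4. Removing control replicate 1, 2 or 3 or replicate 2 of the combination ended the call of Mrpl9 (adjusted p of 0.0511 to 0.077).

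The other 7 that rose with the combination play varied roles. Mrpl45, which holds the tunnel exit against the inner membrane, had 32.0, 33.0 and 28.7 CPM in control and 39.7, 45.2 and 36.0 CPM with the combination, without overlap, for a log2 fold change of 0.37 ± 0.08 (adjusted p = 0.0136). Mrpl32, whose protein is trimmed by a mitochondrial protease before it joins the ribosome, had 18.0, 16.2 and 17.3 CPM and 20.6, 23.6 and 23.5 CPM, also without overlap, for 0.39 ± 0.10 (adjusted p = 0.0229). Mrps30, a large subunit protein despite its name, Mrps22, Mrpl38 of the central protuberance, Mrpl15 and Mrps5 had log2 fold changes of 0.31 to 0.38, and each of these 5 passed in 5 to 8 of 17 alternatives. The call of Mrpl45 ended without control replicate 2 (adjusted p = 0.0764) or replicate 2 of the combination (0.0665). That of Mrpl32 ended without replicate 2 or 3 of either group (0.0674 to 0.125). In all, 12 members had every combination library above every control, as did 9.13% of all genes. The count of 12 was 5 without control replicate 1, 3 without control replicate 2 and 4 without control replicate 3. It was 6, 6 and 5 without replicates 1, 2 and 3 of the combination, and 6 without GW3965 replicate 1. Genes called in either direction were 3163 of 15608 with all libraries. They were 1326 of 15841, 1175 of 15846 and 2054 of 15798 without control replicates 1, 2 and 3. Without replicates 1, 2 and 3 of the combination they were 2333 of 15848, 1526 of 15853 and 2142 of 15760. Mesenchyme and pericyte marker sums were 2410, 1010 and 3210 CPM with the combination, above the control of the same number each time, and 4 of 10 such markers rose. Neural progenitor sums were 1810, 1970 and 1100 CPM, below the control of the same number each time, and 5 of 12 such markers fell. Of 7 erythroid markers, 2 fell. The part of these cells in the result was not tested.

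The third comparison asked what CT99021 did in the presence of GW3965, and it shares no library with the comparison of CT99021 against control. Here 21 of the 76 genes rose (27.6%) and none fell, where 11.8% of all genes rose and 8.81% fell. The median log2 fold change was 0.21 against 0.01 over all genes, and 66 of 76 values were above 0. The combination exceeded GW3965 in all 3 same-numbered pairs for 47 members and was below it in all 3 for 2, where 29.8% and 26.2% of all genes did so. All 5 members that had risen with CT99021 alone were among the 21. The fit estimates the effect of the replicate number and the spread from all libraries together, so the comparisons are not fully separate. Mesenchyme and pericyte marker sums were higher with the combination in each number, at 2410, 1010 and 3210 CPM against 1330, 301 and 2620 CPM, and 4 of 10 such markers rose and none fell. Neural progenitor sums were lower, at 1810, 1970 and 1100 CPM against 2090, 2880 and 1450 CPM, and 7 of 12 such markers fell and none rose. The part of either in the result was not tested.

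Mrpl12 had 46.7, 44.0 and 27.6 CPM with GW3965 and 70.8, 64.0 and 37.3 CPM with the combination, higher in each pair, for a log2 fold change of 0.53 ± 0.07 (adjusted p = 0.0016). Mrps18b had 24.3, 20.5 and 22.0 CPM with GW3965, all below the combination, for 0.47 ± 0.11 (adjusted p = 0.0149). Without GW3965 replicate 1 its adjusted p was 0.0845, without GW3965 replicate 2 it was 0.0817 and without replicate 2 of the combination 0.0577. Mrpl50 had 0.42 ± 0.08, Mrpl9 0.38 ± 0.11 and Mrpl19 0.30 ± 0.07 on the log2 scale. Without the libraries numbered 3 and replicate 2 of the combination, which left the combination 1 library, Mrpl50 had 0.33 on the log2 scale. Removing GW3965 replicate 1 or 2 or replicate 3 of the combination ended the calls of Mrpl9 and Mrpl19, as did removing replicate 2 of the combination for Mrpl9, with adjusted p up to 0.14. Mrps16, the counterpart of a bacterial small subunit protein, had 13.6, 12.8 and 11.4 CPM with GW3965 and 16.4, 17.9 and 15.7 CPM with the combination, without overlap, for a log2 fold change of 0.40 ± 0.11 (adjusted p = 0.0266, passing in 9 of 17 alternatives). With CT99021 against control its value was -0.03 ± 0.11, and the difference between these effects, which is the interaction, did not pass (0.43 ± 0.15, adjusted p = 0.999).

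Mrpl18, a large subunit protein, had 28.1, 27.6 and 14.4 CPM with GW3965 and 36.8, 38.2 and 21.6 CPM with the combination, for a log2 fold change of 0.46 ± 0.15 (adjusted p = 0.0484). It passed in 6 of 17 alternatives. Its locus overlaps Tcp1, a cytosolic chaperonin subunit, which went from 378.2 ± 60.04 to 478.3 ± 67.81 CPM (SD, n = 3) and rose by 0.34 ± 0.05 on the log2 scale (adjusted p = 0.00285), and the part of its reads in the value of Mrpl18 was not tested. Mrpl46 had 0.42 ± 0.11 and Mrpl38 0.30 ± 0.09. Mrpl42 had 0.39 ± 0.11, Mrpl15 0.38 ± 0.09, Mrpl28 0.37 ± 0.10, Mrpl30 0.35 ± 0.09 and Mrpl45 0.33 ± 0.08. Mrpl38 passed in 3 of 17 alternatives, Mrpl42 in 7 and Mrpl46, Mrpl15, Mrpl28, Mrpl30 and Mrpl45 in 11 to 14. The remaining members that rose, Mrpl20, Mrpl32, Mrpl49, Mrps7, Mrps18a, Mrps24 and Mrps27, had log2 fold changes of 0.27 to 0.33. Mrps12, which guards the accuracy of decoding, had 0.37 ± 0.12 and did not pass (adjusted p = 0.0567). The count of 21 was 11 without control replicate 1 or 2 or CT99021 replicate 1, and 6 without replicate 1 or 2 of the combination. It was 9 without replicate 3 of the combination, 4 without GW3965 replicate 1 or 2, and 9 without GW3965 replicate 3. Genes called in either direction were 3218 of 15608 with all libraries. They were 1396 of 15839 and 1484 of 15846 without GW3965 replicate 1 or 2. Without replicate 1 or 2 of the combination they were 2078 of 15848 and 1625 of 15853. When any of these libraries was left out, the share of members called was below that of all genes called either way. Other fits with the block gave 12 (RLE size factors, 3135 of 15608 genes called), 10 (no filter on low counts, 2804 of 21340) and 13 (DESeq2, 3403 of 15608).

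**Figure D4:**
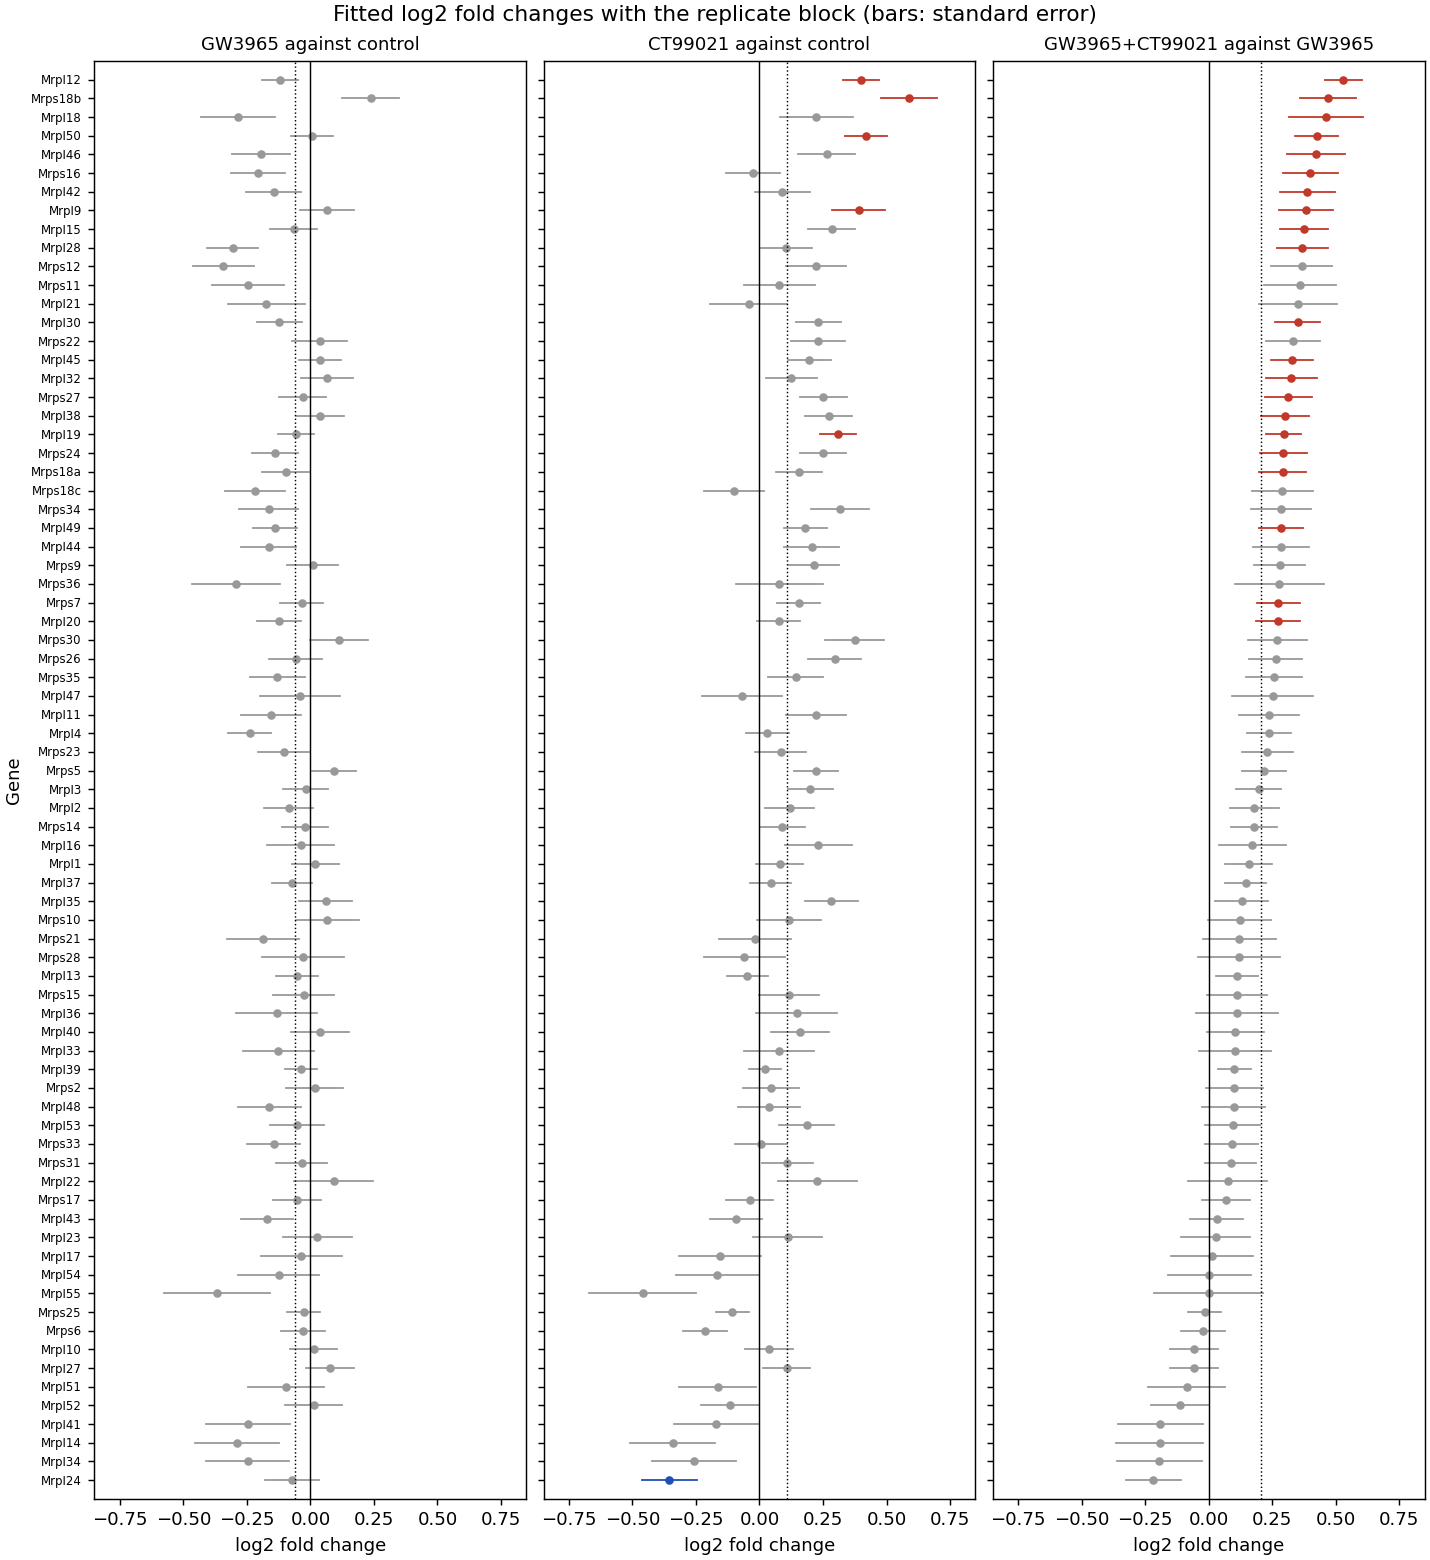
Fitted log2 fold change (horizontal axis) of each of the 76 genes (vertical axis, the same order in each panel) from the fit with the replicate block, with bars of 1 standard error. Red points rose, blue fell and grey did not pass, the solid line is 0 and the dotted line the median of the members. The median is -0.06 for GW3965 against control, 0.11 for CT99021 against control and 0.21 for GW3965+CT99021 against GW3965.

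The effect of the liver X receptor agonist was examined with and without CT99021. With GW3965 alone no member rose or fell against control (edgeR's quasi-likelihood test with the block, and 0 by DESeq2 with the block), and 0.0192% of all genes rose and 0.0% fell. Unadjusted p was under 0.05 for 3 members and for 386 of all 15608 genes. The median log2 fold change of the members was -0.06, against 0.00 over all genes, and 20 of 76 values were above 0. GW3965 was below control in all 3 same-numbered pairs for 29 members, where 19.0% of all genes were, and above it in all 3 for 2, where 14.2% were. In the fit without the block this median was 0.03 when GW3965 replicate 3 was left out, whereas with the block it lay between -0.09 and -0.04 under every alternative run. The lowest values were those of Mrpl55 (-0.37 ± 0.21), Mrps12 (-0.34 ± 0.12) and Mrpl28 (-0.30 ± 0.10), and the highest that of Mrps18b (0.24 ± 0.11), each with adjusted p = 0.959. Mrps12 had 14.5, 11.9 and 8.15 CPM with GW3965 and 16.4, 14.5 and 12.5 CPM in control, lower in each pair with groups that overlapped.

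In the presence of CT99021, adding GW3965 called no member either, where 0.0192% of all genes rose and 0.0% fell. Unadjusted p was under 0.05 for 1 member and for 1017 of all 15608 genes, and DESeq2 with the block called 0 members. The median log2 fold change was 0.01, and the summed level changed by 7.05% in the libraries numbered 1 and by -2.15% and -1.41% in those numbered 2 and 3. Mrpl47 (0.28 ± 0.16), Mrpl32 (0.27 ± 0.10) and Mrpl21 (0.22 ± 0.15) had the highest values, and Mrpl41 (-0.26 ± 0.17), Mrps12 (-0.20 ± 0.12) and Mrps34 (-0.20 ± 0.12) the lowest. The interaction of the compounds passed for no member and for 0.0% of all genes, and DESeq2 with the block called 0 members. Its unadjusted p was under 0.05 for 2 members and for 523 of all 15608 genes. Its median over the members was 0.09 against 0.02 over all genes.

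Members were also counted by subunit. Of 49 members whose protein lies in the large subunit, 4 rose and 1 fell with CT99021 against control, 9 rose with the combination against control and 16 rose with the combination against GW3965. Of 26 in the small subunit the numbers that rose were 1, 3 and 5. The shares with CT99021 against control, 8.16% of the large and 3.85% of the small subunit, are at or below the 8.23% of all genes that rose. With the combination against GW3965 they were 32.7% and 19.2%, where 11.8% of all genes rose. With the combination against control 18.4% of the large subunit genes rose, where 11.3% of all genes did, and the 3 of 26 small subunit genes are close to that share. The median log2 fold changes in the comparison with GW3965 were 0.17 and 0.24. Mrps36 was placed in neither, since its protein is now known from the alpha-ketoglutarate dehydrogenase complex, and it had a log2 fold change of 0.28 ± 0.17 there without passing. Members were also classed as having a bacterial counterpart (46) or as found only in mitochondria (29). Mrps18a and Mrps18b, though relatives of a bacterial protein, were placed in the second class. The medians of these classes, in that order, were 0.11 and 0.16 with CT99021 against control. With the combination against GW3965 they were 0.18 and 0.26. Whether these subsets differ was not tested.

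Other genes of mitochondrial translation gave context. For CT99021 against control, 14.3% of the 7, 18.5% of the 27 and 17.6% of the 17 genes listed next rose. Over all genes 8.23% rose and 7.59% fell. Of 7 mitoribosomal proteins with other names, Ptcd3, a small subunit protein, rose with CT99021 against control by 0.36 ± 0.07 on the log2 scale, and no other passed. Of 27 genes of mitoribosome assembly and ribosomal RNA modification, 5 rose and none fell: the rRNA methyltransferase Mrm1 (0.72 ± 0.15), Wbscr16 (0.63 ± 0.10), the pseudouridine synthase Rpusd4 (0.53 ± 0.11), Fastkd2 (0.43 ± 0.09) and the GTPase Noa1 (0.42 ± 0.12). Mrm1 went from 7.45 ± 1.51 CPM in control to 12.2 ± 2.67 CPM (SD, n = 3). Of 17 tested genes of mitochondrial translation factors and mRNA handling, 3 rose: Lrpprc, which stabilises mitochondrial mRNAs (0.45 ± 0.07), and the elongation factors Tsfm (0.32 ± 0.10) and Gfm1 (0.27 ± 0.07). None of 10 tested genes of mitochondrial DNA upkeep and transcription passed in any comparison. Unadjusted p was under 0.05 for 2 of these 10 with CT99021 against control, and for 4812 of all 15608 genes.

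Among 16 regulators of mitochondrial gene expression, Pprc1, a coactivator that partners NRF1, rose with CT99021 from 72.5 ± 22.0 to 120.8 ± 34.5 CPM (0.73 ± 0.14 on the log2 scale), and Esrra, an orphan nuclear receptor, rose from 21.1 ± 2.55 to 28.2 ± 3.41 CPM (0.41 ± 0.11). Ppargc1a, the coactivator best known for mitochondrial biogenesis, fell from 23.9 ± 10.6 to 11.8 ± 1.23 CPM (-0.96 ± 0.19). Myc fell from 58.4 ± 17.3 to 39.6 ± 11.7 CPM (-0.57 ± 0.15), and Gabpa fell by 0.28 ± 0.07 on the log2 scale. Of the factors whose motifs were searched, Nrf1 (0.10 ± 0.08, adjusted p = 0.429) and Yy1 (-0.28 ± 0.09, adjusted p = 0.0556) did not pass. With the combination against GW3965, Pprc1 (0.61 ± 0.14), Esrra (0.36 ± 0.11) and Sp1 (0.24 ± 0.06) rose, and Myc (-0.62 ± 0.15) and Ppargc1a (-0.69 ± 0.18) fell. Of the 16 regulators, 12.5% rose and 18.8% fell with CT99021 against control, where 8.23% and 7.59% of all genes did. In the comparison with GW3965, 18.8% rose and 12.5% fell, where 11.8% and 8.81% of all genes did.

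The cytosolic ribosome and the respiratory chain were set beside the mitochondrial ribosome as related gene sets. Of 81 tested cytosolic ribosomal protein genes, 51 rose with CT99021 against control (63.0%) and 73 with the combination against GW3965 (90.1%), with medians of 0.23 and 0.30. In the edgeR fit without the block none of the 81 passed in either comparison. Nor did any gene of the assembly, translation factor and regulator lists. The corresponding counts for the mitochondrial set were 5 and 21 of 76. Over all genes 8.23% rose and 7.59% fell with CT99021 against control. With the combination against GW3965, 11.8% rose and 8.81% fell. Of 80 tested nuclear-encoded respiratory chain genes, 1 rose and 1 fell with CT99021 against control, and 7 rose and 1 fell with the combination against GW3965, with medians of 0.06 and 0.14. With GW3965 against control the medians were -0.06 for the cytosolic, -0.06 for the mitochondrial ribosomal and -0.12 for the respiratory chain genes, and no gene of the 3 sets passed. Of 15 mitochondrially encoded genes none passed in any comparison. Unadjusted p was under 0.05 for 1 of them with the combination against control and for 3 with the combination against CT99021. Of all 15608 genes it was under 0.05 for 5476 and 1017, in that order. Their messenger RNAs summed to 31180 ± 5734 CPM in control, 29770 ± 2999 CPM with GW3965, 32740 ± 6001 CPM with CT99021 and 25010 ± 6437 CPM with the combination (SD, n = 3), and the groups overlapped, with the lowest sum, 17580 CPM, in replicate 1 of the combination. Their median log2 fold change was 0.08 with CT99021 against control, -0.33 with the combination against control and -0.27 with the combination against GW3965. The differences between these sets were not tested.

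**Figure D5:**
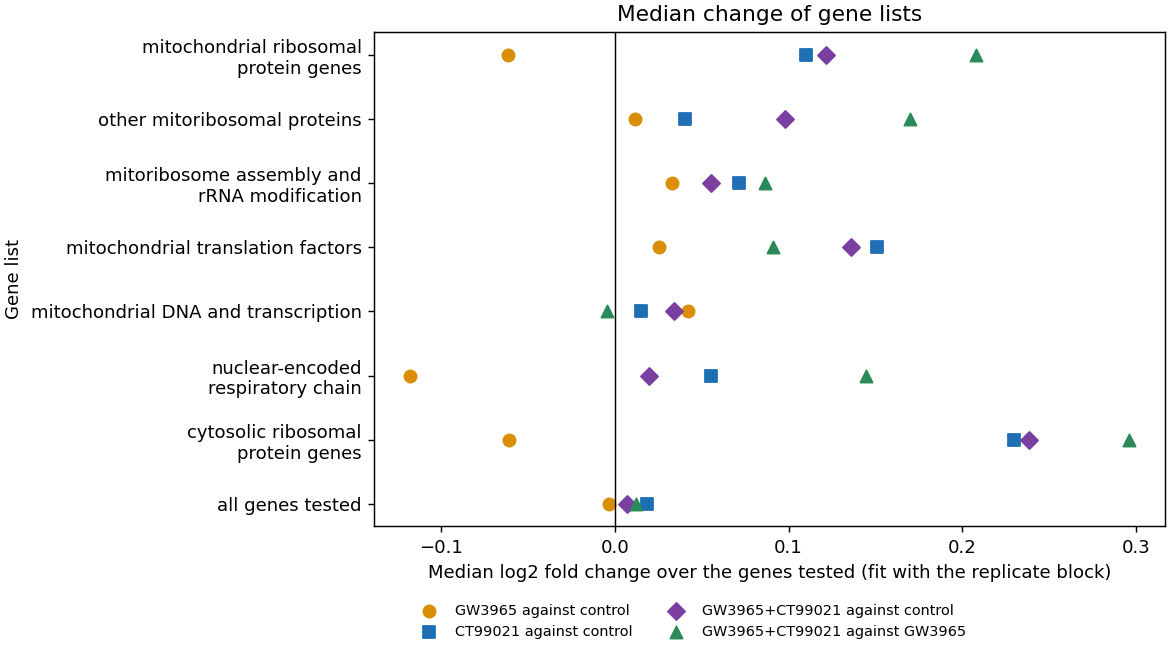
Median log2 fold change (horizontal axis) over the tested genes of each list (vertical axis), from the fit with the replicate block, with 1 marker shape and colour per comparison. The mitochondrial ribosomal protein genes (0.11, 0.12 and 0.21 in the 3 comparisons that test CT99021 or the combination) lie between all genes tested and the cytosolic ribosomal protein genes (0.23, 0.24 and 0.30).

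Depth and overlapping genes set limits. The 24 members that rose in at least 1 comparison had a median of 475.6 counts per library against 345.7 for the other 52, and smaller standard errors (median 0.09 against 0.11). According to RefSeq, 24 of the 76 members overlap another gene. For 19 this is a protein-coding gene, including Mrpl19, Mrpl18, Mrps7, Mrps18a and Mrpl49 among those that rose. Mrps18b and Mrps27, which also rose, overlap the long noncoding RNA genes Gm16279 and 6430562O15Rik. Since the use of strand in counting is not given in the sources used here, reads of such pairs cannot be told apart.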

How the data were processed

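RNA-seq libraries (Illumina TruSeq, 0.5 µg RNA) of neurosphere samples in 4 groups of 3 were used as 1 table of raw read counts per feature, deposited by the authors without normalisation. It also lists a transcript length in bases for each row, per the file headers. The submitters' processing notes name Bowtie and the build mm9. How reads were counted, with which annotation and whether by strand, is not given in the sources used here. Repeat rows (1217) stayed out of library sizes and tests. No column of another sample was present.

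Counts were fitted with edgeR 4.0.16 in R 4.3.3: quasi-likelihood F test, 12 libraries in 1 fit with a mean per group, TMM factors, filterByExpr (15608 genes), Benjamini-Hochberg adjusted p under 0.05. The report gives this fit with replicate number added as a block, because all 18 same-numbered pairs correlated (median r = 0.752) and 12 of 12 libraries were closest to one of their own number. The labels do not state such pairing. The block lowered the common biological coefficient of variation from 33.4% to 12.7%. CPM use TMM factors. Errors are SD (n = 3) for CPM and standard errors for log2 fold changes. Scripts were tested on simulated data.

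The members, gene lists and comparisons were chosen with earlier results of these data known. Named genes are the members past the test in each comparison (the 12 with the largest change if more), the 3 highest and 3 lowest where fewer than 3 passed, the extremes of level and spread, and members fixed by role. DESeq2 1.42.0, limma-voom 3.58.1, RLE factors, no filter, omission of libraries and fits of the compared groups alone were alternatives. Motifs were searched on both strands of RefSeq promoters (GRCm38.p6). Positions of the deposited table are in mm9 and were not converted.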

Additional observations from a re-analysis of the deposited data

How the results depend on the processing

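Without the replicate block no member passed in any of the 6 comparisons by edgeR, and the block changed this in 3. For CT99021 against control, the count of 0 became 6 with the replicate block, 6 with RLE size factors and the block, 5 with every gene row of at least 1 count and the block, and 7 with DESeq2 and the block. It was 13 without the 4 libraries numbered 3, 10 higher and 3 lower, where 3869 of 15496 genes were called either way. It was 1, 2, 3, 4, 5, 6 or 12 when 1 library was left out with the block. A further alternative, chosen after seeing the data, left out the 5 libraries that stand apart (those numbered 3 and replicate 2 of the combination). It left the combination 1 library, so its counts are not given. For the combination against control the counts of these fits were 12, 12, 6 and 11. They were 10 without the 4 libraries (3893 of 15496 genes) and 3, 4, 5, 6, 10, 11 or 15 without 1 library. DESeq2 without the block gave 1, where it called 533 of 15608 genes. For the combination against GW3965 they were 21, 12, 10 and 13. They were 15 without the 4 libraries (4339 of 15496 genes) and 4, 6, 9, 11, 14, 15 or 24 without 1 library. The cause of the differences was not tested. The block changed no other call.

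Median log2 fold changes of the members ranged as follows when 1 library was left out without the block: -0.178 to 0.031 for GW3965 against control, 0.033 to 0.187 for CT99021 against control, 0.035 to 0.207 for the combination against control, -0.082 to 0.117 for the combination against CT99021, 0.091 to 0.318 for the combination against GW3965 and -0.055 to 0.172 for the interaction. With the block the range was 0.085 to 0.163 for CT99021 against control and 0.163 to 0.212 for the combination against GW3965, including 0.170 without replicate 1 of the combination. For CT99021 against control the median was 0.080 without the 4 libraries numbered 3 and 0.078 without the 5 libraries. For the combination against CT99021 it was 0.089 without the 5 libraries. For the combination against GW3965 it was 0.179 with RLE size factors, 0.178 with DESeq2, 0.171 with only the groups compared and 0.221 without the 5 libraries.

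Values that changed sign were of genes that had not passed. Mrpl22 in GW3965 against control ran from -0.053 to 0.244 when 1 library was left out, and was -0.0038 without the 4 libraries numbered 3 and -0.0046 without the 5 libraries. Mrps30 there was -0.010 without GW3965 replicate 3 with the block, -0.0029 without the 4 libraries and -0.0046 without the 5. Mrpl41 in the combination against CT99021 was 0.078 without the 5 libraries. The interaction of Mrpl22 ran from -0.288 to 0.029 when 1 library was left out without the block, with 0.0091 and 0.0072 between them, and was 0.050 without the 4 libraries. Groups reduced to 2 libraries were assumed to vary like the others. Without the 5 libraries the combination was reduced to 1, under the same assumption.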
